A study of Arabidopsis thaliana with 2 samples.

Results

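The distal arm of Arabidopsis thaliana chromosome 4, taken here from 10 Mb (TAIR10 build) to the last listed SNP at position 18554074, held 426 of the 40612 listed SNPs (1.05%). It was chosen by the number of listed SNPs per Mb, which is low there, so its density of 49.8 SNPs per Mb (95% Poisson interval 45.2 to 54.8) is a description of the choice. The 10 Mb of chromosome 4 before it held 6837 SNPs, or 684 per Mb (668 to 700). All intervals cover counting error alone, and neighbouring SNPs are inherited together. The list has no replicate, so no test between regions was possible.

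The study mapped potent, a dominant mutation that impairs lateral root formation. The mutation was found after mutagenesis with 50 mM EMS for 12 hours of a line carrying the reporters DR5::Luciferase, pWOX5::ER-YFP and pSCR::ER-GFP. The mutant was backcrossed 6 times to that reporter line in the Col-0 ecotype and then crossed 5 times to Ler. Of about 200 seeds of the last cross, seedlings showing the potent phenotype formed 1 pool and seedlings not showing it formed the other. Both are given the ecotype Ler in the labels, the potent line having been kept heterozygous. The SNP list analysed here names neither pool, gives no allele, depth or quality, and is described by its title as homozygous.

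Col-0 is the ecotype of the reference genome, and Ler differs from it at many natural SNPs on every chromosome. In progeny of a cross between them, a stretch inherited from Ler on both chromosomes shows such differences as homozygous SNPs. A stretch that carries Col-0 sequence on one or both chromosomes does not. EMS adds point changes, mostly G to A or C to T, which cannot be recognised without alleles. The distal long arm of chromosome 4 is gene-rich euchromatin, far from the centromere and from the heterochromatic knob of the short arm.

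The boundary was a slope with a shoulder, and it began before the chosen start. In consecutive 500 kb windows, the list held 222 SNPs from 9 to 9.5 Mb and 94 from 9.5 to 10 Mb, just outside the arm. It held 49 from 10 to 10.5 Mb and 60 from 10.5 to 11 Mb, just inside it. The next window, from 11 to 11.5 Mb, held 20. In 100 kb windows the counts were uneven, with 55, 20 and 28 SNPs in successive windows from 9.1 to 9.4 Mb. The fall that lasted lay between 9.4 and 9.8 Mb, where successive windows held 70, 37, 22 and 11 SNPs. From there to 10.3 Mb the windows held between 10 and 14, with no step at 10 Mb. The last SNPs before the start were at the adjacent positions 9991520 and 9991521, and the first SNP of the arm was at 10008309.

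Set against the median 500 kb window of the dense part (293.5 SNPs), all windows from 9.5 Mb on held under 50% of it. All from 11 Mb on held under 20%, and all from 12.5 Mb on under 10%. With 100 kb windows the 10% position was 18.2 Mb, because single windows far out on the arm still exceeded the threshold.

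**Figure D1:**
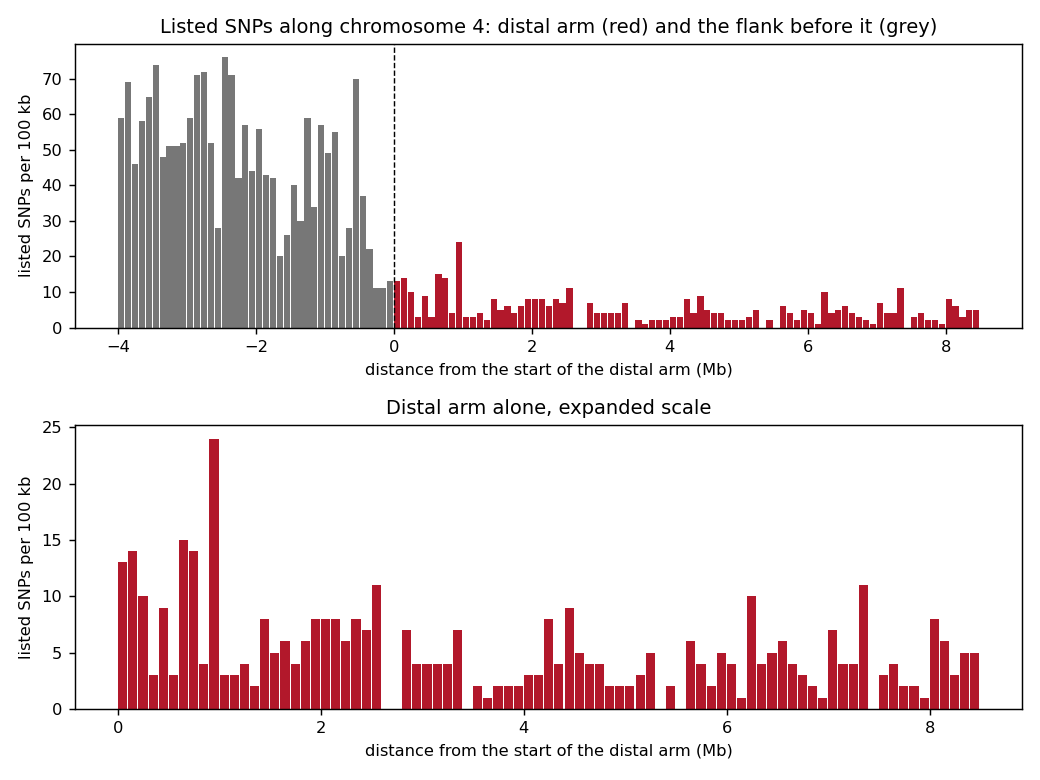
Listed SNPs in consecutive 100 kb windows of chromosome 4, against distance from the start of the distal arm in Mb. Red bars are the arm and grey bars the 4 Mb before it. The lower panel shows the arm alone, where the tallest window holds 24 SNPs and 6 of 85 full windows are empty.

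Density within the arm was highest next to the boundary. The first 1 Mb held 109 SNPs, 25.6% of the arm, or 109 per Mb (89.5 to 131). The next 1.5 Mb held 86, or 57.3 per Mb (45.9 to 70.8), and the 6.05 Mb from 12.5 Mb to the end held 231, or 38.2 per Mb (33.4 to 43.4). Toward the chromosome end the densities overlapped. The 3 Mb from 12.5 to 15.5 Mb held 35.3 per Mb (28.9 to 42.7), and the rest held 40.9 (34.1 to 48.8). Each 1 Mb window from 13 to 18 Mb held between 28 and 44 SNPs, and the last 0.554 Mb held 30, or 54.1 per Mb (36.5 to 77.3).

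The sparse distal end of chromosome 5, beyond 18 Mb, had a lower density over its whole length than the chromosome 4 arm (45.2 to 54.8 per Mb). It held 350 SNPs, or 39.2 per Mb (35.2 to 43.5), and these 2 intervals do not overlap. Counts of 500 kb windows varied by more than counting error on both segments, so this is not a test of a difference. The first 1 Mb of the chromosome 5 segment held 86 per Mb (68.8 to 106), the next 1.5 Mb held 42 (32.3 to 53.7) and the remainder 31.3 (27.1 to 35.9). For each of these 3 parts the interval overlapped that of the corresponding part of the chromosome 4 arm, though each value was lower on chromosome 5. Its slope also began before the chosen boundary, with 79, 50, 31, 24 and 26 SNPs in the 5 windows of 100 kb before 18 Mb and 14 in the first window beyond it.

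The sparse part of chromosome 1, its first 21 Mb, was, as cut here, arranged the other way round. It held 564 SNPs, or 26.9 per Mb (24.7 to 29.2). The 1 Mb next to its boundary held 22 SNPs (13.8 to 33.3), of which 18 lay in the 200 kb at the boundary itself, and the next 1.5 Mb held 3, or 2 per Mb (0.412 to 5.84). Farther from the boundary the density was 29.1 per Mb (26.7 to 31.7). These intervals, which cover counting error alone, do not overlap those of the chromosome 4 arm at any of the 3 distances. That too is not a test of a difference. With this cut the lowest density of the segment was near its boundary, whereas on chromosome 4 the highest density was there. That contrast depends on the cut. Successive 500 kb windows outward from it, on the dense side, held 82, 61, 96, 130 and 329 SNPs, so a shoulder lay outside the segment. Set against the median 500 kb window of the dense side (171.5 SNPs), the 50% position was 22 Mb. A cut there would place the windows of 61 and 82 SNPs next to the boundary, inside the segment.

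**Figure D2:**
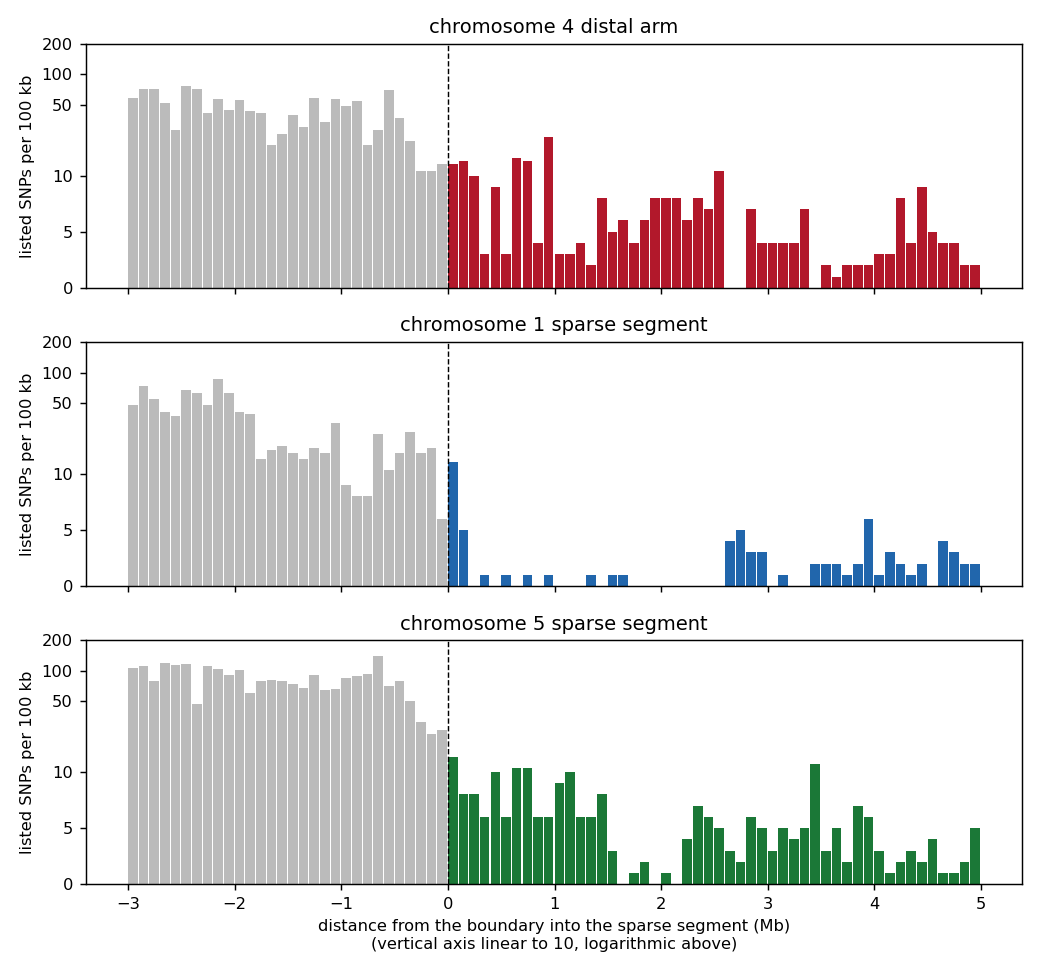
Listed SNPs per 100 kb against distance from the boundary into the sparse segment in Mb, for the chromosome 4 distal arm (top), the first 21 Mb of chromosome 1 (middle, drawn mirrored) and chromosome 5 beyond 18 Mb (bottom). Grey bars lie on the dense side. Inside the segments of chromosomes 4 and 5 the first 1 Mb holds 109 and 86 SNPs, and on chromosome 1 it holds 22, followed by a near-empty stretch.

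The residual SNPs were not spread at an even rate. For window counts, the index of dispersion (variance over mean) is 1 when SNPs fall independently at an even rate, and it takes in slopes of density as well as clumps. Over 100 kb windows it was 3.14 on the chromosome 4 arm, 2.64 on the chromosome 1 segment and 2.47 on the chromosome 5 segment. Over 500 kb windows it was 7.14 on the arm, 5.80 on chromosome 1 and 7.91 on chromosome 5.

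The order of the 3 segments turned with where they were taken to start. With the 1 Mb nearest each boundary left out, the index over 100 kb windows was 1.70 on the arm, 2.46 on chromosome 1 and 2.05 on chromosome 5. With 2.5 Mb left out it was 1.87 on the arm, 2.28 on chromosome 1 and 1.78 on chromosome 5. Over 500 kb windows the index with 1 Mb left out was 2.71 on the arm, 5.78 on chromosome 1 and 5.32 on chromosome 5. With 2.5 Mb left out it was 2.04, 4.84 and 3.53, again lowest on the arm. Both steps were chosen after seeing the data. Over 100 kb windows the part of the arm from 11 to 12.5 Mb, with 15 windows, gave 0.784, and the first 1 Mb, with 10 windows, gave 3.96.

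Distances can also be set against their own mean, which lessens the effect of the level of density. SNPs within 1 kb of each other were first counted as 1. The coefficient of variation of the distances was then 1.20 on the arm, 1.71 on chromosome 1 and 1.19 on chromosome 5. Since distances of up to 1 kb are removed, its value at an even rate is somewhat below 1, and lower where SNPs are denser. Within the arm it was 1.07 in the first 1 Mb, 1.07 from 11 to 12.5 Mb, 1.17 from 12.5 to 15.5 Mb and 0.977 beyond. With all distances kept, where the coefficient is 1 at an even rate, it was 1.30, 1.24, 1.27 and 1.10 in the same order. By that count the first 1 Mb was the highest of these parts, though close to those from 11 to 15.5 Mb.

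Clumps joined over a fixed distance grow with density, so their sizes follow in part from the values that chose the arm and from the slope at its start. Joining SNPs within 10 kb of each other gave 222 clumps, of which 130 were single SNPs (30.5% of all SNPs in the arm, exact binomial 95% interval 26.2 to 35.1). A further 48 were pairs, 21 were triplets and 12 held 5 or more. Those 12 held 93 SNPs, or 21.8% of the arm, and 7 of them lay in the first 1 Mb and 3 beyond 12.5 Mb. The isolated share was 35.8% (31.9 to 39.9) on the chromosome 1 segment and 31.1% (26.3 to 36.3) on the chromosome 5 segment. The largest clump was 20 SNPs on the chromosome 4 arm, 7 on chromosome 1 and 8 on chromosome 5.

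The largest clump spanned 51.5 kb from 10924696 to 10976199 and touched 11 protein-coding genes, 7 of which held a SNP. AT4G20320 held 3. AT4G20230 held 2, as did PCAP1, a cation-binding protein of the plasma membrane, and BAM3, a CLAVATA1-related receptor kinase of the root phloem. The cytochrome P450 gene CYP71A27 held 1, while the neighbouring CYP71A28 and TAF11, a subunit gene of the general transcription factor TFIID, held 0. Leaving out this clump, a step chosen after seeing the data, left 89 SNPs in the first 1 Mb and a dispersion of 2.38 over 100 kb windows, against 3.14 with it.

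The next 2 clumps held 10 SNPs each. One ran from 10022436 to 10054487, across 10 protein-coding genes. In it ABCB9, an ABC transporter of the B class, held 2 SNPs and the phytochrome photoreceptor gene PHYE held 1, as did SSP4b and AT4G18060. The other ran from 10738441 to 10754660, and 8 of its 10 SNPs lay outside protein-coding genes, with 1 each in AT4G19750 and AT4G19760. Beyond the first 1 Mb the largest clump held 9 SNPs, from 12561646 to 12587907, with 1 SNP each in AT4G24204 and in WRKY7, a WRKY transcription factor gene.

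**Figure D3:**
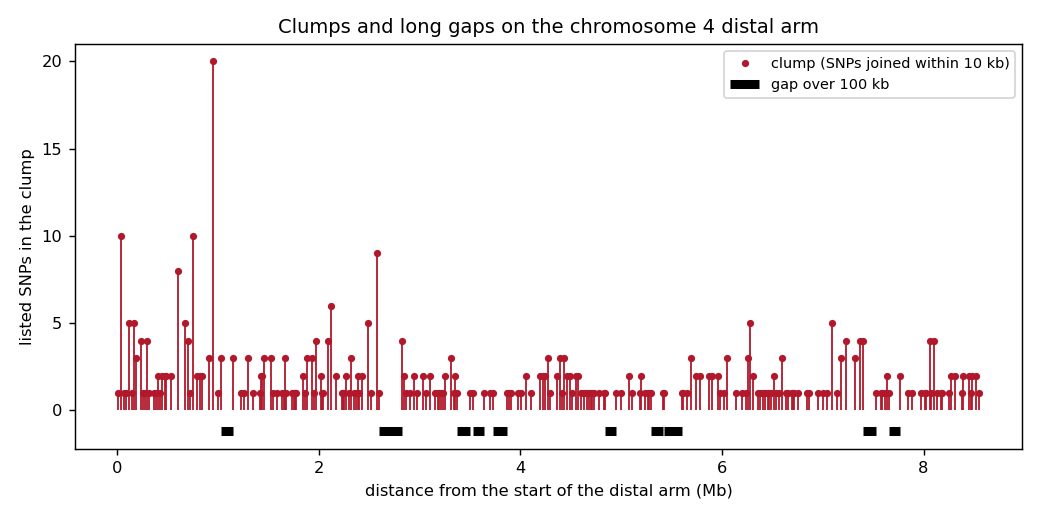
Number of listed SNPs in each of the 222 clumps (red) against distance from the start of the arm in Mb, with the 10 gaps over 100 kb as black bars beneath. The largest clumps stand in the first 1 Mb, where no gap exceeds 100 kb, and 9 of the 10 gaps open beyond 12.5 Mb.

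Among close neighbours on the arm, most were within 10 bp. The arm held 31 distances of at most 100 bp, and 23 of them were at most 10 bp (74.2%, 55.4 to 88.1). The share was 55.6% (30 of 54, 41.4 to 69.1) on the chromosome 1 segment and 62.2% (23 of 37, 44.8 to 77.5) on the chromosome 5 segment. In the dense part of chromosome 4 it was 35.7% (599 of 1677, 33.4 to 38.1), and from 6 to 10 Mb of that chromosome it was 44.6% (39.6 to 49.7). The intervals of the 3 sparse segments overlap one another. Where SNPs are denser, more neighbours fall within 100 bp by spacing alone, so the lower share in the dense part follows in part from the density that chose the arm. Over all distances the sparse segments were instead below the dense parts. Distances of at most 10 bp made up 5.41% on the arm, 5.33% on the chromosome 1 segment and 6.59% on the chromosome 5 segment. They made up 8.76% in the dense part and 9.27% from 6 to 10 Mb. This measure was picked after the distances were seen.

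All 23 of these close neighbours were separate pairs, with no run of 3. In 11 the SNPs were on adjacent bases. Of the 23 pairs, 10 lay in the first 1 Mb and 10 beyond 12.5 Mb. Adjacent positions were listed inside GAMT1, a gibberellin methyltransferase gene (13352393 and 13352394), inside BAM3 (10951982 and 10951983), and inside CRT1, also named MORC1 (17172952 and 17172953). Another adjacent pair, at 15870988 and 15870989, lay 2338 bp from HB-8, a homeodomain gene of vascular tissue, and outside it.

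**Figure D4:**
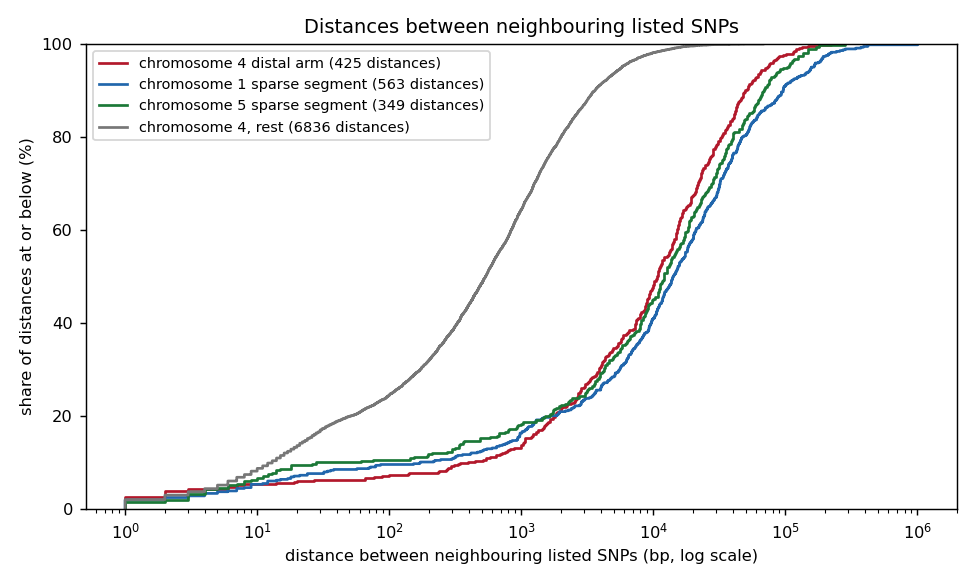
Cumulative share of the distances between neighbouring listed SNPs (percent) against distance in bp on a log scale. Medians are 10.7 kb on the chromosome 4 arm (red), 14.2 kb on chromosome 1 (blue) and 12.1 kb on chromosome 5 (green). These 3 sparse segments part at longer distances, with 90th percentiles of 49.5, 96.4 and 67.9 kb in that order. The rest of chromosome 4 (grey) has a median of 536 bp.

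The longest gap on the arm, 221 kb from 12598832 to 12820080, enclosed 63 protein-coding genes. It opened 148 bp from AT4G24300 and closed inside AT4G24920, at the first SNP of one of the close pairs. The next were 179 kb from 15426913 to 15606292, with 48 genes, and 148 kb from 13723073 to 13871049, with 49. The second opened inside AT4G31890 and closed 892 bp from APX6, an ascorbate peroxidase gene. The third opened inside CIP7 and closed inside AT4G27850.

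Long gaps and empty windows become more common as density falls, so their numbers follow in part from the values that chose the arm. Gaps over 100 kb numbered 10 on the arm and took up 16.1% of its length. None opened in the first 1 Mb, 9 opened beyond 12.5 Mb, and 7 of those opened between 12.5 and 15.5 Mb. The chromosome 5 segment had 18 such gaps over 28.5% of its length, the longest 282 kb. The chromosome 1 segment, which is 21 Mb long and includes a centromere, had 51 over 49.5% of its length. Its longest gap, 1008 kb, covered the empty windows from 18400001 to 19300000, near the boundary, and the next was 424 kb. The first 12.5 Mb of chromosome 1 alone had 29 gaps over 100 kb, over 39.5% of its length, the longest 374 kb. Of full 100 kb windows, 6 of 85 (7.06%) were empty on the chromosome 4 arm, against 54 of 210 (25.7%) on chromosome 1 and 8 of 89 (8.99%) on chromosome 5.

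The share of the arm's SNPs outside genes exceeded the share of its bases there. The genes were those of the RefSeq annotation of TAIR10.1. Protein-coding genes covered 67.6% of the arm and held 199 of the 426 SNPs (46.7%, 41.9 to 51.6). Sequence outside every annotated gene covered 29.8% and held 222 (52.1%, 47.3 to 56.9). Pseudogenes held 2 and other genes 3. Per Mb this was 34.4 SNPs (29.8 to 39.6) in protein-coding genes and 87.1 (76.0 to 99.4) outside every gene, a ratio of 2.53 (2.08 to 3.08).

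The same ratio was 1.65 (1.38 to 1.96) on the chromosome 1 segment, 2.29 (1.84 to 2.85) on the chromosome 5 segment and 1.79 (1.63 to 1.96) on chromosome 4 from 6 to 10 Mb. The interval of the arm overlapped that of chromosome 5 and lay above the others. The chromosome 1 segment includes a centromere, and its first 12.5 Mb alone gave 1.87 (1.53 to 2.29), which overlaps the arm. The arm from 12.5 Mb on gave 2.97 (2.27 to 3.89). Position relative to genes was not part of how the arm was chosen. Linked SNPs are not independent, however, and the read coverage behind each class is unknown.

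**Figure D5:**
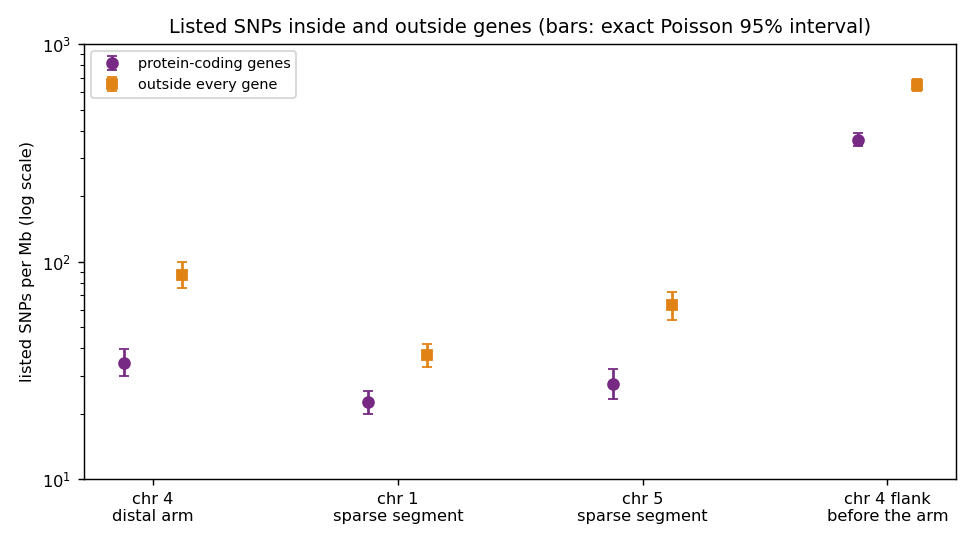
Listed SNPs per Mb on a log scale in protein-coding genes (circles) and outside every gene (squares), with exact Poisson 95% intervals, for the chromosome 4 distal arm, both contrast segments and the 4 Mb of chromosome 4 before the arm. The distance between the symbols is widest on the arm (34.4 and 87.1 per Mb).

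Of the 2411 protein-coding genes that lie wholly on the arm, 170 (7.05%, 6.06 to 8.15) held at least 1 listed SNP, against 29.2% of all 27444 protein-coding genes of the 5 chromosomes. That difference restates the choice of a sparse region. The share was 4.34% of 4722 genes on the chromosome 1 segment and 5.42% of 2456 on the chromosome 5 segment. On the arm 142 genes held 1 SNP, 23 held 2 and 5 held 3, the most of any gene there. Counting genes with a SNP as 0, the median distance from a gene to the nearest listed SNP was 7.70 kb on the arm, 17.6 kb on the chromosome 1 segment and 11.2 kb on the chromosome 5 segment.

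The 5 genes with 3 SNPs were AT4G22000, AT4G23080, AT4G20320, CYCT1;2, a cyclin T gene, and BLH2, a BEL1-like homeodomain gene also named SAW1. AT4G22000 is the shortest of them at 1.36 kb and held 2.21 SNPs per kb. BLH2, at 5.10 kb, held 0.589 per kb. Of the genes with 2 SNPs, the 10 with the most per kb held between 0.684 and 1.21. They were AT4G25300, GAMT1, AT4G24920, smB, a small nuclear ribonucleoprotein gene, AT4G19045, AT4G39600, AT4G21460, AT4G20230, AT4G38640 and AT4G19130, which encodes the replication protein RPA1E.

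Genes of hormone signalling and development on the arm were mostly free of listed SNPs, as were the arm's genes in general. Of 28 genes in 5 lists, 2 held a SNP (1 each), close to the 7.05% of the arm, and 6 had one inside the gene or within 1 kb of it, where 393 of the 2411 genes of the arm (16.3%) did. Gaps over 100 kb enclosed 5 of the 28, near their share of all genes of the arm (394 genes, also 16.3%). No allele is given, so a SNP in or near a gene does not show that the gene was changed by EMS or bears on the phenotype.

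None of the 5 auxin signalling genes held a SNP. The Aux/IAA repressors IAA11, IAA27 and IAA29 lay 38.4, 26.2 and 21.4 kb from the nearest one, and IAA29 lay inside the gap of 179 kb. The auxin response factor ARF9 lay 21.6 kb from the nearest SNP, and ARF16, a regulator of the root cap, lay 1.74 kb from it. The auxin receptor gene AFB4, named after its position was seen, held 0 SNPs and lay inside the longest gap.

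The 5 genes of auxin synthesis and transport had a median distance of 0.499 kb to the nearest listed SNP, against 7.70 kb for all genes of the arm. This was the lowest median of the lists, the others running from 2.81 to 21.6 kb. For all 28 listed genes it was 7.385 kb, close to that of the arm. ABCB2 held 1 SNP. The nearest SNP was 0.287 kb from YUC8, a flavin monooxygenase of auxin synthesis, 0.499 kb from CYP83B1, an enzyme of indole glucosinolate synthesis, 1.29 kb from CYP79B2, which makes indole-3-acetaldoxime, and 2.27 kb from YUC1.

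None of the 7 regulators of root, meristem and flower held a SNP. SHORT-ROOT (SHR), the partner of SCR in radial patterning of the root, and ANT, an AP2-domain factor of organ growth, lay in the same gap of 116 kb, 37.6 and 27.4 kb from the nearest SNP. AGL24, a MADS factor of flowering, lay in the longest gap, 72.1 kb from the SNP that opens it. AP2 lay in a gap of 128 kb, 1.76 kb from its edge, and WOX13 in one of 96.6 kb. ATH1 lay 8.04 kb from the nearest SNP, and AG, which specifies stamens and carpels, 0.700 kb from it.

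Among 7 hormone, light and cold genes, PHYE held 1 SNP. The gibberellin F-box gene SLY1 lay 0.758 kb from a SNP, the abscisic acid phosphatase gene ABI1 9.29 kb and the brassinosteroid receptor gene BRI1 12.1 kb. The cold-response genes CBF1, CBF2 and CBF3, which stand in tandem, lay between 12.9 and 19.7 kb from the nearest SNP. RPS2, a disease resistance receptor, the cellulose synthase genes CESA1 and CESA8 and the hexokinase HXK1 held 0, at 1.53 to 6.73 kb. The arm also carries 24 cysteine-rich receptor-like kinases, a family found largely in tandem arrays, and 2 of them, CRK6 and CRK19, held 1 SNP each, near the 7.05% of all genes of the arm.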

How the data were processed

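Per the labels' protocols, DNA of the seedling pools was read on the HiSeq2000. The authors deposited 1 table of SNP positions, each a chromosome number and a base position, per the file headers. The series' design text names SNPtrack as the pipeline, and TAIR10 is the build in the submitters' processing notes. The aligner, filters and rule for calling a site homozygous are not stated, and read depth is unknown.

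All positions could be read, increased within each chromosome and were unique. Counts, distances, windows and clumps were computed in Python 3.11.15 with numpy 2.4.6, pandas 2.3.3 and scipy 1.17.1, with exact Poisson and binomial 95% intervals, and the functions were tested on simulated data. Boundaries of the segments, members and gene lists were chosen with earlier results of these data known. Named genes were the 15 with the most SNPs, the listed genes, those at the 3 longest gaps and in the 3 largest clumps, and others said to be chosen later.

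Genes came from RefSeq TAIR10.1, whose nuclear chromosomes are taken to be those of TAIR10, and no gene coordinates are given. As a check, 44.4% of all listed SNPs fell in protein-coding genes, the lowest of 7 placements (48.0% to 51.2% when shifted by 1000 to 10000 bp). No genome sequence was used, so the planned measures of reference base, repeated sequence and coding sequence were not computed. The gene table names no products, so families other than the receptor-like kinases were not counted.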

Additional observations from a re-analysis of the deposited data

How the results depend on the processing

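No paired analysis was possible because the SNP list belongs to no named pool and has no replicates. Density was 43.0 SNPs per Mb with at most 1 SNP per 1 kb. With the arm starting at 9.5, 11 and 12.5 Mb it was 57.4, 42.0 and 38.2 per Mb, and at 10.5 Mb or without the largest clump it stayed within the main interval. The share of SNPs with a listed neighbour within 1 kb was 25.6% (21.5 to 30.0), and 20.3% from 12.5 Mb. The share was 14.1%, 19.7%, 54.9% and 69.5% for neighbours within 100 bp, 500 bp, 5 kb and 10 kb. The longest gap grew from 221 kb to 699 kb when SNPs with no neighbour within 10 kb were left out, which cannot shorten a gap, and was the same under the other alternatives. The 20% boundary moved from 11 Mb to 10 Mb with 1000 kb windows and to 12.5 Mb with the median window of the genome. The 10% boundary moved from 12.5 Mb to 18.2 Mb with 100 kb, 17.25 Mb with 250 kb and 11 Mb with 1000 kb windows, and could not be given with the genome median. The share of genes with a SNP was 16.3% with 1 kb added either side and 5.36% from 12.5 Mb. The cause of these changes was not tested beyond what each step does by construction. The share of SNPs in protein-coding genes stayed within its interval in the 3 alternatives run (45.0% to 47.3%). Ending the arm at the chromosome end, coding sequence alone, and the alternatives on reference bases and repeats were not run, since no genome was used.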
